A study of Mus musculus with 12 samples.

Results

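The terminal end buds of the growing mouse mammary gland were compared with its mature ducts. All 12 arrays of the study were used, 6 for each structure, and they were assigned by the tissue that the labels name in the Cy5 channel. The glands were from mice 5 weeks old that carried a green fluorescent reporter under the beta-actin promoter, which was used to see the ductal tree for microdissection. The labels name no sorting of cells, and no genetic change or treatment other than the reporter. Cy3 carried RNA of distal stroma without epithelium on every array, so each value is a ratio of epithelial tissue to stroma and stroma that was alike on all arrays cancels in the difference of the groups. Whether the arrays stand for separate animals is not in the labels, so a p-value here reflects the spread among arrays, part or all of which could be technical.

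Terminal end buds are the club-shaped tips that push the ductal tree through the fat pad at puberty. They hold an outer layer of cap cells, which give rise to myoepithelium, over several layers of dividing body cells. Behind them the tube narrows to a duct with an inner luminal layer and an outer layer of contractile myoepithelial cells. Growth of the tips depends on ovarian and pituitary hormones and on local growth factors such as fibroblast growth factors and insulin-like growth factor 1.

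The values are read as log2 ratios to stroma, so a difference of 1 is a 2-fold change. The sources used here do not give the base, and another one would alter the sizes but no order or test. Of 17589 probes, 1463 (8.32%) were higher and 1832 (10.4%) lower in end buds than in ducts at an adjusted p under 0.05 (limma, Benjamini-Hochberg over all probes), and 175 (0.995%) and 244 (1.39%) of these differed by at least 1. Over 12913 named genes, each read from 1 probe, 1176 (9.11%) were higher and 1455 (11.3%) lower, and 140 (1.08%) and 205 (1.59%) of these differed by at least 1. The arrays of the groups did not overlap for 777 probes with end buds above (4.42%) and 1018 below (5.79%), or for 634 genes above (4.91%) and 813 below (6.3%). Ratios spread more widely on end bud arrays, with an SD over probes of 0.535 to 0.635, than on duct arrays, at 0.38 to 0.484. As 2 rescalings, all arrays were given 1 distribution (quantile normalization) or 1 median absolute deviation (a common deviation). The latter need not make the SDs equal. Calls that such a rescaling changes are named below.

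**Figure D1:**
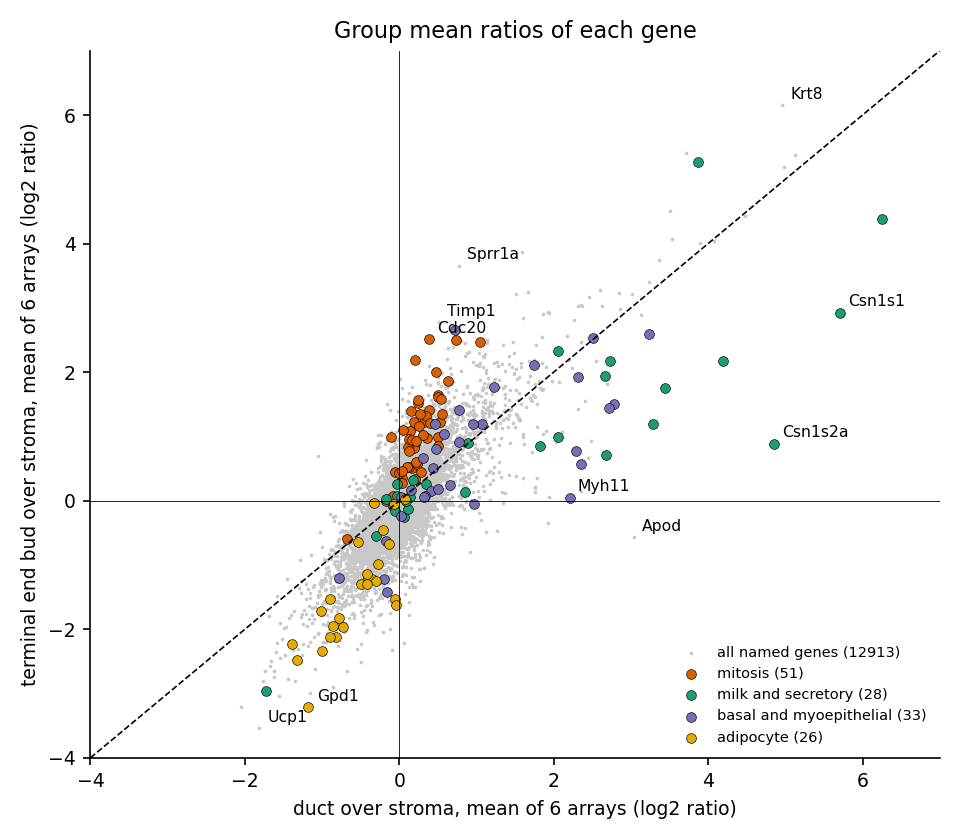
Mean log2 ratio to stroma of each of 12913 named genes in ducts (horizontal axis) and in terminal end buds (vertical axis), 6 arrays each, with 4 gene lists in colour and the line of equal ratios dashed. Mitosis genes lie above the line, with Cdc20 2.13 above it, while casein genes and Myh11 lie below it, and adipocyte genes lie below it at ratios under 0 in both structures.

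Both tissues carried the markers of mammary epithelium far above stroma. Krt18, a keratin of luminal cells, stood at 4.70, 5.20 and 5.62 (lowest, median and highest of 6 arrays) in end buds and at 4.15, 5.12 and 5.58 in ducts. Epcam, an adhesion molecule of epithelial cells, stood at 3.46, 4.52 and 5.29 and 3.74, 4.68 and 4.89, and Krt5, a keratin of the basal layer, at 1.94, 2.50 and 2.96 and 2.01, 2.56 and 3.02. None of the 3 passed, and their arrays overlapped, with differences of 0.21 (SE 0.24, adjusted p = 0.62), -0.053 (SE 0.31, adjusted p = 0.936) and 0.016 (SE 0.18, adjusted p = 0.967), whose signs turn under the rescalings or without single arrays. The cadherin Cdh1 at 0.24 (adjusted p = 0.573) and the luminal transcription factor Gata3 at 0.38 (adjusted p = 0.325) did not pass either, and a common deviation turned both signs (-0.09 and -0.32). Of 27 measured luminal genes 4 were higher (14.8%, against 9.11% of all genes) and 2 lower (7.4%, against 11.3%). Their median difference was 0.064 against 0.001 over all genes. That median turned under the rescalings, to -0.096 (quantile) and -0.317 (common deviation), and 10 of the 27 were then lower at an unadjusted p under 0.05 with the latter.

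The luminal keratins Krt19 and Krt8 and the claudin Cldn3 led the higher calls of that list. Krt19 stood at 5.09, 5.28 and 5.88 in end buds and 2.78, 3.997 and 4.25 in ducts, a difference of 1.69 (SE 0.24, adjusted p = 0.00022). Krt8, the partner of Krt18 in the luminal filament, stood at 5.82, 6.27 and 6.31 and 4.53, 5.01 and 5.34, a difference of 1.20 (SE 0.15, adjusted p = 9.92e-05). Every end bud array lay above every duct array for both keratins. Cldn3, a tight junction protein, was higher by 1.003 (adjusted p = 0.00417). The 2 rescalings differed for these genes, which lie at the top of the scale. Quantile normalization ended none of their calls, and kept 3 of the 4 luminal genes called higher. With a common deviation Krt19 differed by 0.76 (adjusted p = 0.326), Krt8 by 0.13 (0.833) and Cldn3 by 0.27 (0.585), and 0 luminal genes were called higher, also at an unadjusted p under 0.05. A model in which the variance follows the mean level also ended the calls of Krt8 (adjusted p = 0.4) and Cldn3 (0.0832).

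Among single genes the largest gain was in Sprr1a, a small proline-rich protein best known from the cornified envelope of skin. It stood at 3.21, 3.57 and 4.47 in end buds and at -0.11, 0.79 and 1.72 in ducts, a difference of 2.88 (SE 0.26, adjusted p = 8.89e-06), or 7.38-fold. Timp1, a secreted inhibitor of matrix metalloproteinases, stood at 2.36, 2.67 and 3.37 and -0.39, 0.66 and 1.08, a difference of 2.26 (SE 0.25, adjusted p = 4.56e-05). For both genes the lowest end bud array lay more than 1 log2 unit above the highest duct array. The cell cycle genes Cdc20, Cenpa and Cdk1 and the transcription factor gene Etv5, all described further on, were also among the 12 genes that gained most without overlap of the arrays.

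The other genes of that set have varied roles. Hspa8, the constitutive Hsc70 chaperone, stood at 0.75, 2.09 and 2.55 in end buds and -1.18, 0.31 and 0.61 in ducts, and was higher by 1.89 (SE 0.36, adjusted p = 0.00206) with the largest SE of the 12. The prostaglandin transporter gene Slco2a1 stood at 1.76, 2.14 and 2.40 and -0.59, 0.51 and 0.78 and was higher by 1.71 (SE 0.20, adjusted p = 7.1e-05). Crym, a thyroid hormone binding protein of the cytosol, stood at 2.83, 3.11 and 3.87 and 1.16, 1.53 and 2.03 and was higher by 1.70 (SE 0.18, adjusted p = 3.59e-05). Crym and Slco2a1 were thus high on every end bud array, while duct array 3 was alone below 0 for Slco2a1. Rspo4, a secreted enhancer of Wnt signalling, was above stroma in end buds (0.34, 0.67 and 1.18) and below it in ducts (-1.51, -1.06 and -0.60), a difference of 1.74 (SE 0.18, adjusted p = 2.7e-05).

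**Figure D2:**
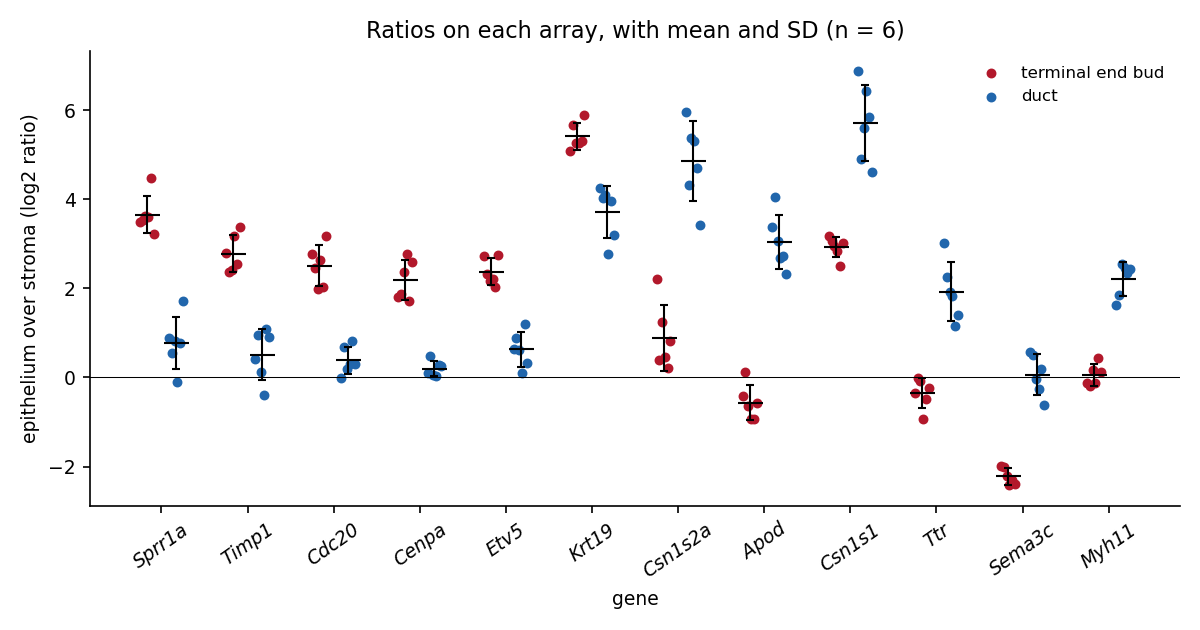
Log2 ratio to stroma of 12 of the genes that differed most without overlap of the arrays, 6 higher and 6 lower in terminal end buds. Points are single arrays, the horizontal mark is the mean and the bar the SD of 6 arrays. The end bud and duct points of each gene are apart because the genes were chosen that way. The duct values of the caseins Csn1s2a and Csn1s1 spread over more than 2 log2 units.

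Genes of mitosis were higher in end buds as a group. Of 51 measured genes, 32 were higher (62.7%, against 9.11% of all genes) and 0 lower by limma, also 0 lower at an unadjusted p under 0.05, and the median difference was 0.73. Cdc20, the activator of the anaphase-promoting complex, stood at 1.996, 2.55 and 3.17 in end buds and -0.005, 0.31 and 0.81 in ducts, a difference of 2.13 (SE 0.20, adjusted p = 1.1e-05). Cenpa, the histone variant that marks centromeres, stood at 1.72, 2.12 and 2.78 and 0.036, 0.18 and 0.48, a difference of 1.99 (SE 0.18, adjusted p = 8.12e-06). Cdk1, the kinase that drives entry into mitosis, stood at 1.56, 2.49 and 3.31 and 0.21, 0.56 and 1.43, a difference of 1.76 (SE 0.29, adjusted p = 0.000806). No duct array reached the lowest end bud array in any of the 3. Birc5, the survivin subunit of the chromosomal passenger complex, was higher by 1.53 (adjusted p = 0.000385) and Stmn1, which destabilises microtubules, by 1.42 (adjusted p = 0.00416), the latter with overlapping arrays. The arrays of 18 of the 51 mitosis genes did not overlap, all with end buds above, against 4.91% of all genes. In tissue RNA such as this, fewer cells of a type and less RNA per cell cannot be told apart.

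Duct arrays were uneven in these genes. The mean of the mitosis list lay at 0.756, 0.96 and 1.445 (lowest, median and highest) in end buds, and at 0.618 in duct array 5, 0.412 in duct array 2 and between 0.012 and 0.166 on the other 4 duct arrays. Mki67, a nuclear antigen of cycling cells, stood at 0.31, 0.93 and 1.54 in end buds and -0.028, 0.25 and 1.57 in ducts, and its difference of 0.49 (SE 0.29) did not pass (adjusted p = 0.288). Without duct arrays 2 and 5, a choice made after seeing the data, it was 0.88 (adjusted p = 0.0205), and 37 mitosis genes passed. The list kept 24 calls under quantile normalization and 27 with a common deviation, had 28 on late slides alone (from slide 196, 4 arrays a group) and 8 on early slides alone (up to slide 193, 2 a group, with duct array 2 among them).

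The stretch of promoter just before the start of these 3 mitosis genes is shown because it holds the letters that cell cycle genes of this class are known to share. The cell cycle homology region (TTTGAA or TTTAAA) and the CCAAT box (CCAAT), each read on both strands, are in capitals, and a box on the other strand reads ATTGG. Sequences are from RefSeq, build GRCm38.p6, 160 bases that end at the base before the annotated start, each 5' to 3' on the gene's own strand. Cdc20 is at chr4:118437344-118437503 (minus strand), Cenpa at chr5:30666726-30666885 (plus strand) and Cdk1 at chr10:69352913-69353072 (minus strand).
Cdc20: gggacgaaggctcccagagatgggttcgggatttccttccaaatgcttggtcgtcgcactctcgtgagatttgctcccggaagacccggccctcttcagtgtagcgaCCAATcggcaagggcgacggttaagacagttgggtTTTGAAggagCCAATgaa
Cenpa: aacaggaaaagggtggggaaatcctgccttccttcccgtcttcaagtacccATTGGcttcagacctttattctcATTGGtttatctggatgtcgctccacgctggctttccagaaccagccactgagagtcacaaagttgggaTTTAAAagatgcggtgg
Cdk1: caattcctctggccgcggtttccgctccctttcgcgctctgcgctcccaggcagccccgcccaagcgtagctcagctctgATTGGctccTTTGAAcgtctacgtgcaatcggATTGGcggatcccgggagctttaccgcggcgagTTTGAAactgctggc

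All 3 held the cell cycle homology letters within 20 bases of the start, with the last letter 13 bases before it in Cdc20, 12 in Cenpa and 10 in Cdk1. Each also held CCAAT boxes, and Cdk1 carried the homology letters again 66 bases before its start. Over windows from 250 bases before to 50 after the start, 32 of 43 mitosis promoters matched by symbol held the homology letters (74.4%), against 27.8% of all 27025 promoters. CCAAT boxes were also in 32 of the 43 (74.4%, against 37.9%). Of the 26 mitosis genes called higher and matched, 76.9% held the homology letters. A match of letters is a description and not a binding site.

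Genes of DNA replication and nucleotide supply were higher too. Of 47 measured genes, 29 were higher (61.7%, against 9.11% of all genes) and 2 lower (4.3%, against 11.3%), with a median difference of 0.62. Mcm6, a subunit of the replicative helicase, stood at 1.58, 2.33 and 2.86 in end buds and 0.42, 0.68 and 2.05 in ducts, a difference of 1.42 (SE 0.28, adjusted p = 0.00233). Rrm2, the small subunit of ribonucleotide reductase, stood at 1.39, 1.86 and 1.999 and 0.17, 0.26 and 0.84, a difference of 1.41 (SE 0.13, adjusted p = 1.24e-05). Dut, which clears dUTP, stood at 1.32, 1.54 and 1.94 and 0.066, 0.29 and 0.55, a difference of 1.27 (SE 0.12, adjusted p = 9.91e-06). The groups were apart for Rrm2 and Dut, whereas duct array 5, at the top of the ducts, overlapped the end buds for Mcm6. The helicase subunit Mcm3 was higher by 1.34 (adjusted p = 0.000544) and Pcna, the sliding clamp, by 0.90 (adjusted p = 0.00261). Rfc1, the large subunit of the clamp loader, was lower, with a difference of -0.34 (adjusted p = 0.0164). The other lower gene, Uhrf1, a partner of maintenance DNA methylation, was at -0.53 (adjusted p = 0.0353), was not called when end bud array 1, 2, 4 or 6 or duct array 3, 4, 5 or 6 was left out, turned to 0.17 under quantile normalization and was -0.24 with a common deviation (adjusted p = 0.517). The list kept 21 higher calls under that normalization and 24 with a common deviation, and its mean was 0.545 in duct array 5 against 0.062 to 0.241 on the other ducts.

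The promoter of Mcm6 shows the other class of cell cycle letters. The E2F letters searched were TTTCCCGC, TTTGGCGC and TTTCGCGC on both strands, and they stand in capitals with the CCAAT boxes. The stretch is chr1:128359706-128359865 (minus strand, GRCm38.p6).
Mcm6: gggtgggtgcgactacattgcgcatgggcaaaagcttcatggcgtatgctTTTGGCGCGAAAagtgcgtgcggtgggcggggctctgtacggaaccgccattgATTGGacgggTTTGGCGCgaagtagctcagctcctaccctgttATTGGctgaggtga

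It held TTTGGCGC at 2 places, the farther of which overlaps a match on the other strand (GCGCGAAA). E2F letters were in 11 of 39 replication promoters (28.2%), in 2 of 43 mitosis promoters (4.65%) and in 1.91% of all promoters. Of the 26 replication genes called higher or lower and matched, 5 held E2F letters (19.2%), and over all 10292 measured genes with a promoter 2.91% did. The cell cycle homology letters were in 23.1% of replication promoters, against 27.8% of all promoters and 21.3% of those of measured genes.

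Upstream of these genes, the G1 regulators went both ways. Of 29 measured genes of G1 and E2F control 5 were higher and 5 lower (17.2% each, against 9.11% and 11.3% of all genes). With a common deviation or without duct arrays 2 and 5, 3 were higher. Cdk4, the kinase of cyclin D, stood at 1.43, 1.72 and 1.95 in end buds and 0.30, 0.63 and 1.01 in ducts, a difference of 1.05 (SE 0.12, adjusted p = 6.55e-05). Ccnd1, cyclin D1 itself, was higher by 0.98 (SE 0.17, adjusted p = 0.00128) and by 0.49 with a common deviation (adjusted p = 0.0627). Rb1, the retinoblastoma protein that holds E2F factors in check, was below stroma in end buds at -1.48, -1.21 and -1.07 and near it in ducts at -0.088, 0.27 and 0.63, a difference of -1.52 (SE 0.12, adjusted p = 3.28e-06). Thus every end bud array was below every duct array for Rb1 and above it for Cdk4. The stress-related cyclin Ccng1 was lower, with a difference of -1.04 (adjusted p = 9.02e-05) and the inhibitor Cdkn2c with -0.82 (adjusted p = 0.00121). Mycn was higher by 0.60 (adjusted p = 0.0199, and 0.0649 without duct arrays 2 and 5).

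Among chromatin, splicing and ribosome assembly genes, calls went in both directions. Higher calls made up 26.9% to 43.9% of these lists (9.11% of all genes) and lower calls 2.9% to 15.4% (11.3% of all genes). H4c8, a histone H4 gene, stood at 1.41, 1.81 and 1.86 in end buds and -0.23, 0.015 and 0.35 in ducts, a difference of 1.72 (SE 0.11, adjusted p = 6.72e-07), with no overlap and a single end bud array (array 1) below the other 5. Of 26 chromatin genes of dividing cells 7 were higher, among them the histone variants H2az1 by 1.32 and H2ax by 0.91 (adjusted p = 2.7e-05 and 0.00118), and 4 were lower, among them Hmgb1 at -0.69 (adjusted p = 0.00825, and 0.0868 on late slides alone). Quantile normalization left 4 of the 7 higher calls, and all 4 lower calls were absent on late slides alone, where 3 of the 26 were lower at an unadjusted p under 0.05; 2 were lower without end bud array 1 or duct array 5, and 1 without duct arrays 2 and 5.

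Of 41 splicing factors 18 were higher (43.9%) and 5 lower (12.2%, near the share of all genes, and 8 genes under either rescaling). Hnrnpab and the core snRNP protein Snrpg were higher by 1.21 and 1.15 (adjusted p = 5.54e-05 and 5.38e-05), while Hnrnpa3 and Hnrnpu were lower, with differences of -0.86 and -0.64 (adjusted p = 0.000229 and 0.0137). The other probe of Hnrnpa3 was at -0.38. Of 34 ribosome biogenesis genes 13 were higher, led by the small nucleolar RNP proteins Fbl at 0.77 and Nhp2 at 0.74 (adjusted p = 0.000116 and 9.55e-06), and 7 were called higher under quantile normalization. The 1 lower gene was Ncl, nucleolin, at -0.74 (adjusted p = 1.53e-05). Cytosolic ribosomal proteins stayed near the shares of all genes (9.11% higher and 11.3% lower). Of 54, 7 were higher (13%) and 5 lower (9.3%, and 8 genes without end bud array 2), with a median difference of -0.014. Under the rescalings 3 were higher and 8 (quantile) or 6 (common deviation) lower, with medians of -0.201 and -0.14. Of 23 chaperonin and heat shock genes 6 were higher (26.1%, and 3 genes under quantile normalization) and 3 lower (13%, near the share of all genes). The chaperonin subunit Cct3 was among the higher ones at 0.65 (adjusted p = 0.000558). The Hsp40 gene Dnaja1 led the lower ones at -0.95 (adjusted p = 0.000163). Of 35 proteasome genes 6 were higher (17.1%) and 3 lower (8.6%, below the share of all genes). However, 0 were lower under either rescaling (3 and 4 at an unadjusted p under 0.05) or without duct arrays 2 and 5 (4), and 1 without duct array 3, 4 or 5.

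**Figure D3:**
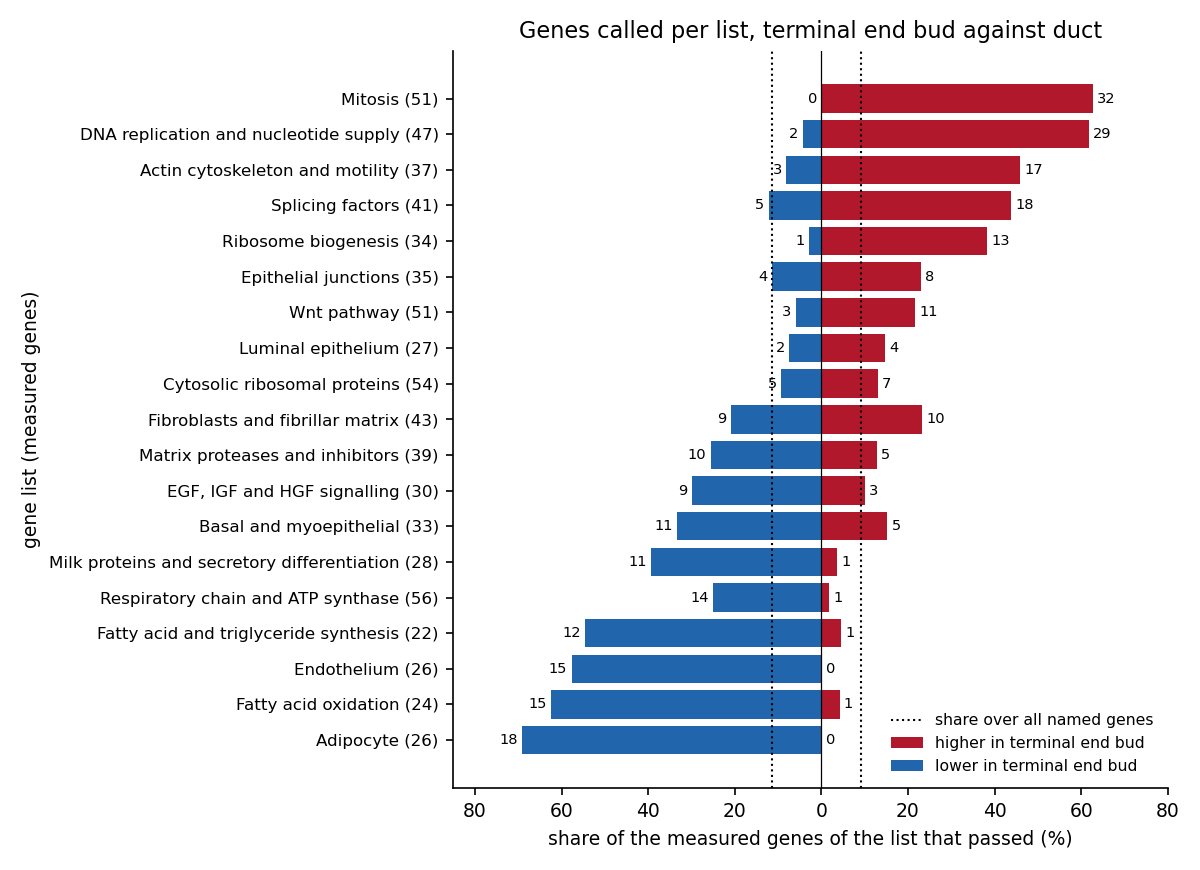
Share of the measured genes of 19 lists that were called higher (right, red) or lower (left, blue) in terminal end buds than in ducts, with the number of genes at the end of each bar, the number measured in brackets and the shares over all named genes as dotted lines. Mitosis (32 of 51) and replication (29 of 47) lie farthest to the right, adipocyte (18 of 26) and fatty acid oxidation (15 of 24) farthest to the left.

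Etv5 and Etv4, ETS transcription factors known to be induced by FGF receptors, were higher in end buds. Etv5 stood at 2.04, 2.27 and 2.76 in end buds and 0.10, 0.63 and 1.21 in ducts, a difference of 1.74 (SE 0.18, adjusted p = 2.51e-05). Etv4 stood at 1.15, 2.25 and 2.38 and -0.024, 0.51 and 1.06, a difference of 1.43 (SE 0.23, adjusted p = 0.000692). Neither gene had any overlap of the arrays. Among 25 FGF genes, 5 were higher and 5 lower (20% each, against 9.11% and 11.3% of all genes). Besides both ETS genes, the phosphatase Dusp6 by 0.62 (adjusted p = 0.00696, and 0.0574 under quantile normalization) and the Ras pathway inhibitor Spred2 by 0.63 (adjusted p = 0.00595) were higher. The receptor Fgfr1 was lower, with a difference of -0.54 (adjusted p = 0.00442). Fgfr2, the receptor of the epithelium, stood at 1.997, 2.43 and 3.02 and 2.04, 2.32 and 2.74 and did not pass (0.12, SE 0.17, adjusted p = 0.717), with a sign that turned under both rescalings. The number of lower FGF genes was 2 or 3 when end bud array 4, 5 or 6 or duct array 1, 4 or 6 was left out.

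Of 63 transcription factors of the mammary gland, Etv4 and Etv5 among them, 11 were higher (17.5%, against 9.11% of all genes) and 8 lower (12.7%, near the 11.3% of all genes). Under either rescaling 7 were higher. Klf5, a factor of dividing epithelial progenitors, stood at 1.12, 1.67 and 2.60 in end buds and -0.035, 0.12 and 0.43 in ducts, a difference of 1.61 (SE 0.19, adjusted p = 7.32e-05), but its other probe was at -0.22 and the mean of both at 0.70 (adjusted p = 0.00216). Twist1 at 1.11, Tbx2 at 0.85 and Snai1 at 0.78, factors of cell migration and organ development, were higher without overlap (adjusted p = 7.74e-05, 0.000121 and 0.000188). The Notch target Hey1, the BMP target Id1 and Klf4, linked to cell cycle exit, were lower, with differences of -0.95, -0.94 and -0.79 (adjusted p = 0.00247, 0.000593 and 0.000144). Quantile normalization ended the call of Id1 (-0.60, adjusted p = 0.0518). The estrogen and progesterone receptor genes Esr1 (0.18, adjusted p = 0.417) and Pgr (-0.13, adjusted p = 0.752) did not pass.

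The 4 genes of the Wnt pathway list called higher by at least 1 in end buds were all ligands. Rspo4, the enhancer of Wnt signalling given above and higher by 1.74, was not in that list. Wnt2 stood at 1.01, 1.44 and 1.64 in end buds and -0.19, 0.29 and 0.52 in ducts, a difference of 1.15 (SE 0.13, adjusted p = 5.19e-05). Wnt5a, which signals mainly without beta-catenin, stood at 0.86, 1.29 and 1.53 and 0.026, 0.25 and 0.50, a difference of 1.01 (SE 0.12, adjusted p = 7.71e-05). Wnt6 was higher by 1.09 and Wnt7b by 1.07 (adjusted p = 0.000203 and 0.00765), the last with overlapping arrays. Wnt4, a target of progesterone, did not pass at -0.14 (SE 0.16, adjusted p = 0.623). Sfrp2, a secreted inhibitor of Wnt ligands, moved the other way, with -0.31, 0.042 and 0.85 in end buds against 1.27, 1.72 and 2.22 in ducts, a difference of -1.56 (SE 0.21, adjusted p = 0.000173). In all 11 of 51 Wnt pathway genes were higher (21.6%, against 9.11% of all genes) and 3 lower (5.9%, against 11.3%). The number higher was the same under both rescalings. In the Hedgehog pathway 2 of 13 were higher, the ligand Dhh by 0.95 and the inhibitor Sufu by 0.77 (0.42 as the mean of its probes), and 0 were lower by limma, also at an unadjusted p under 0.05 (adjusted p = 0.00142 and 2.21e-05).

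Some small proline-rich proteins, actin regulators and junction genes also differed. Over all genes 9.11% were higher and 11.3% lower. Next to Sprr1a, its relatives Sprr2a1 and Sprr2k stood at 2.66, 3.74 and 5.52 and 0.66, 2.63 and 3.91 in end buds and at 0.61, 1.60 and 2.81 and 0.20, 0.61 and 1.70 in ducts, with overlap. They were higher by 2.29 and 1.68 (SE 0.45 and 0.46, adjusted p = 0.00241 and 0.0194), Sprr2k no longer under either rescaling (adjusted p = 0.0617 and 0.0667). The Sprr2 genes are close copies of one another, so their probes can share signal. Of 29 genes of the cornified envelope and stratified epithelium 6 were higher (20.7%) and 0 lower by limma, also at an unadjusted p under 0.05. Of 37 genes of the actin cytoskeleton 17 were higher (45.9%) and 3 lower (8.1%). The focal adhesion protein Zyx at 1.15 and the bundling protein Fscn1 at 1.08 led the higher ones (adjusted p = 5.54e-05 and 0.000334). Tmsb4x, which sequesters actin, led the lower ones at -0.80 (adjusted p = 0.00825, and -0.53 without duct arrays 2 and 5). Rescaling left 9 (quantile) and 8 (common deviation) of the higher calls in number. Of 35 junction genes 8 were higher (22.9%, and 5 and 3 genes under the rescalings) and 4 lower (11.4%, close to the share of all genes). Plakoglobin Jup and plakophilin Pkp1 were higher by 1.01 and 0.94 (adjusted p = 0.0147 and 0.000212) and alpha-catenin Ctnna1 lower, with a difference of -0.46 (adjusted p = 0.0157). Without duct arrays 2 and 5, Jup (adjusted p = 0.0751) and Ctnna1 (0.0718) did not pass.

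Matrix genes split into those higher and those lower. Vcan, the large proteoglycan versican, stood at 1.94, 2.51 and 3.11 in end buds and 0.17, 0.75 and 1.64 in ducts, a difference of 1.60 (SE 0.24, adjusted p = 0.00039), and 1.04 as the mean of its probes. The membrane protease Mmp14, which activates other metalloproteinases, stood at 1.90, 2.06 and 3.15 and 0.56, 0.74 and 1.57, a difference of 1.39 (SE 0.22, adjusted p = 0.000511). The matricellular proteins Thbs1 and Tnc were higher by 0.996 and 0.996 (adjusted p = 0.00444 and 0.00868; Tnc 0.0923 on late slides alone), and Col18a1, the source of endostatin, by 1.06 (adjusted p = 0.00176). End buds were the higher group on every array for Vcan, Mmp14, Thbs1 and Col18a1.

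In the opposite direction, Ogn, a small leucine-rich proteoglycan, stood at -2.77, -2.41 and -1.58 in end buds and -0.85, 0.011 and 0.42 in ducts, a difference of -2.23 (SE 0.22, adjusted p = 1.4e-05). Timp3, an inhibitor bound to matrix, stood at -1.90, -1.57 and -1.28 and -0.13, 0.11 and 0.38, a difference of -1.70 (SE 0.12, adjusted p = 1.77e-06), opposite to Timp1. Mmp3, stromelysin, stood at -0.90, -0.65 and 0.036 and 0.94, 1.18 and 1.28, a difference of -1.61 (SE 0.15, adjusted p = 1.15e-05). The 3 genes were lower on all 6 end bud arrays than on any duct array. The collagen gene Col3a1 was lower, with a difference of -1.22 (adjusted p = 0.00328), Sparc with a difference of -1.03 (adjusted p = 0.00157) and the protease inhibitor Cst3 with -1.08 (adjusted p = 5.33e-05). Col1a1 did not pass at 0.70 (SE 0.29, adjusted p = 0.127), though it did at 0.90 without end bud array 3 (0.0253) and with neighbouring slides as a block (0.0498), and reached 0.05 without duct array 2 (0.87). The 43 fibroblast and matrix genes gave 10 higher (23.3%, against 9.11% of all genes) and 9 lower (20.9%, against 11.3%). The 39 proteases and inhibitors gave 5 higher (12.8%, not far from the share of all genes) and 10 lower (25.6%). The 35 basement membrane genes gave 3 and 3 (8.6% each), close to the shares of all genes. Of these, 1 was higher under either rescaling, 1 lower under quantile normalization or without duct arrays 2 and 5, and 6 higher with neighbouring slides as a block. The list means of fat cells and endothelium, given further on, were also lower in end buds on every array, and their part in the lower matrix genes was not tested.

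Milk genes were among the most reduced in end buds. Csn1s2a, a calcium-sensitive casein, stood at 0.21, 0.63 and 2.21 in end buds and 3.43, 5.01 and 5.95 in ducts, a difference of -3.96 (SE 0.41, adjusted p = 2.33e-05). Csn1s1, alpha-S1 casein, stood at 2.51, 2.99 and 3.16 and 4.61, 5.72 and 6.87, a difference of -2.78 (SE 0.31, adjusted p = 5.06e-05). Both caseins were above stroma on every array of either structure, and no end bud array reached a duct array. Btn1a1, butyrophilin of the milk fat globule, stood at 0.61, 0.73 and 0.77 and 2.23, 2.61 and 3.09, a difference of -1.96 (SE 0.13, adjusted p = 7.69e-07). The mucin Muc15 of the same membrane was at -2.02 (SE 0.35, adjusted p = 0.00103), and the iron-binding protein Ltf at -1.68 (SE 0.35, adjusted p = 0.00393). Lalba, the lactose synthase subunit alpha-lactalbumin, spread over 0.059, 1.39 and 2.63 in end buds and 2.06, 3.14 and 4.64 in ducts and was lower, with a difference of -2.09 (SE 0.49, adjusted p = 0.00811).

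Csn3, kappa-casein, was lower, with a difference of -1.87 (SE 0.36, adjusted p = 0.00216) with overlapping arrays. Its other probe was at -0.45, and with the variance following the level the call of Csn3 ended (adjusted p = 0.133). In all 11 of 28 milk and secretory genes were lower (39.3%, against 11.3% of all genes), with a median difference of -0.28, and 11 and 12 were lower under the rescalings. The 1 higher gene was Wfdc18, a secreted whey acidic protein relative, at 1.40 (SE 0.39, adjusted p = 0.0201), which a common deviation reduced to 0.53 (adjusted p = 0.424) and which did not pass with the variance following the level (0.124). The mean of the list lay at 0.803, 0.906 and 1.062 in end buds and at 1.43, 1.703 and 1.778 in ducts, so that it did not overlap.

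The promoter of Csn1s1 is shown for the letters of STAT5, the factor through which prolactin is known to act on casein genes. The letters TTCNNNGAA, which read the same on both strands and were added to the search after seeing the data, are in capitals. The stretch is chr5:87666048-87666207 (plus strand, GRCm38.p6).
Csn1s1: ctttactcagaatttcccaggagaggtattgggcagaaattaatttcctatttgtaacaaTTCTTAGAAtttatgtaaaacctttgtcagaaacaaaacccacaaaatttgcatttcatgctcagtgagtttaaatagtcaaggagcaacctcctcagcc

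The match lies 92 to 100 bases before the start. Of 21 milk and secretory promoters 4 held these letters (19%), against 8.47% of all promoters.

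Other genes of the 12 most reduced without overlap were secreted or metabolic. Apod, a lipid carrier, stood at -0.94, -0.61 and 0.11 in end buds and 2.31, 2.90 and 4.04 in ducts, a difference of -3.60 (SE 0.26, adjusted p = 1.83e-06). Ttr, the thyroxine and retinol transporter, stood at -0.94, -0.30 and -0.017 and 1.15, 1.87 and 3.01, a difference of -2.28 (SE 0.26, adjusted p = 5.84e-05). Chil1, a chitinase-like secreted protein, stood at -0.065, 0.16 and 0.35 and 1.34, 2.23 and 3.52, a difference of -2.20 (SE 0.29, adjusted p = 0.000132). All 3 were well above stroma in each duct sample, while end bud values of Ttr were below 0 on all 6 arrays and those of Apod on 5. Sema3c, a secreted guidance cue, was lower, with a difference of -2.28 (SE 0.18, adjusted p = 3.99e-06), with -2.41, -2.25 and -1.99 in end buds and -0.62, 0.079 and 0.57 in ducts, but its other probe was at -0.69 and the mean of both at -1.49. Tmed5, a cargo receptor of the early secretory pathway, was at -2.04 (SE 0.18, adjusted p = 7.9e-06), and -1.28 under quantile normalization.

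Several contractile genes of smooth muscle and myoepithelium were lower in end buds. Myh11, smooth muscle myosin, stood at -0.19, 0 and 0.44 in end buds and 1.62, 2.38 and 2.55 in ducts, a difference of -2.16 (SE 0.17, adjusted p = 3.2e-06). Cnn1, calponin, stood at -0.54, 0.78 and 0.96 and 1.77, 2.36 and 2.69, a difference of -1.78 (SE 0.23, adjusted p = 0.000142). Mylk, the kinase that activates myosin, stood at -0.13, -0.073 and 0.095 and 0.50, 1.02 and 1.22, a difference of -1.02 (SE 0.10, adjusted p = 2.13e-05). Myh11 and Mylk were close to stroma on every end bud array and above it on every duct array. Tagln was lower, with a difference of -1.27 (adjusted p = 0.000172), and so were the basal keratins Krt14 with a difference of -1.28 and Krt15 with -1.52 (adjusted p = 0.000942 and 0.000198), with no overlap for any of the 3.

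Not every gene of the layer followed. Actg2, the gamma actin of enteric smooth muscle, went the other way, at 1.69, 2.90 and 3.24 in end buds and 0.16, 0.63 and 1.80 in ducts, a difference of 1.94 (SE 0.30, adjusted p = 0.000434), with duct array 5 apart from the other 5 ducts. Acta2, smooth muscle alpha actin, stood at 1.61, 2.74 and 3.30 and 2.43, 3.33 and 3.75 and its difference of -0.64 (SE 0.26) did not pass (adjusted p = 0.116). Acta2 passed at -1.14 with a common deviation (adjusted p = 0.0249) and at -0.80 without duct array 1 (0.041), and was at 0.075 on early slides alone. Of 33 basal and myoepithelial genes 11 were lower (33.3%, against 11.3% of all genes) and 5 higher (15.2%, against 9.11%), with a median difference of -0.26. Under the rescalings 10 (quantile) and 11 (common deviation) were lower, with 9 of the 11 first called among them each time. Those higher were then 1 and 2.

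**Figure D4:**
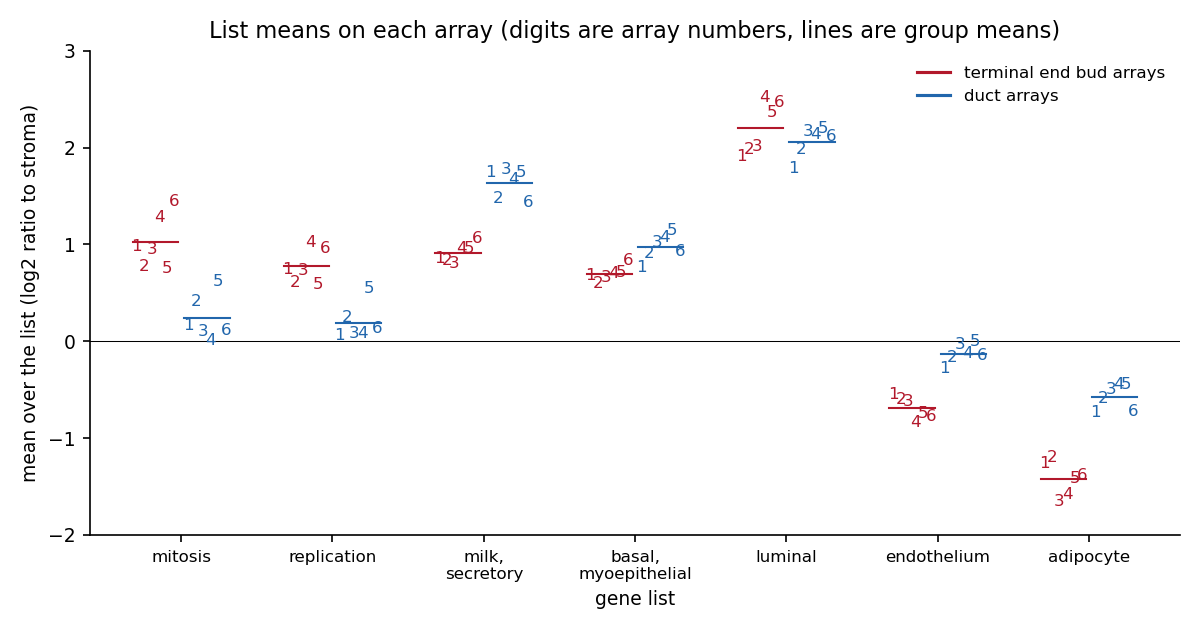
Mean log2 ratio to stroma over 7 gene lists on each array; digits are the array numbers of terminal end buds (red) and ducts (blue), and lines are group means. The mitosis, replication, milk, endothelium and adipocyte lists separate the groups, and the luminal and basal lists do not. Duct arrays 5 and 2 (0.618 and 0.412) are the highest ducts for mitosis, below the lowest end bud array (0.756).

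Hormone and growth factor genes were more often lower than higher. Ghr, the growth hormone receptor, stood at -2.32, -2.03 and -1.76 in end buds and -0.52, -0.27 and 0.34 in ducts, a difference of -1.83 (SE 0.15, adjusted p = 4.47e-06). Kitl, the ligand of the receptor Kit, stood at -1.04, -0.46 and 0.15 and 0.89, 1.30 and 1.63, a difference of -1.74 (SE 0.17, adjusted p = 1.24e-05). Both were lower on every end bud array. Binding proteins of insulin-like growth factor went opposite ways: Igfbp2 stood at 1.86, 2.53 and 2.90 and 0.78, 1.12 and 1.71 and was higher by 1.36 (SE 0.18, adjusted p = 0.000174), whereas Igfbp5 stood at -0.51, 0.49 and 0.98 and 1.22, 1.58 and 2.04 and was lower, with a difference of -1.25 (SE 0.23, adjusted p = 0.00144). Igf1 itself was at -0.86 (adjusted p = 0.000837) and the glucocorticoid receptor Nr3c1 at -0.87 (adjusted p = 0.00115), neither called under quantile normalization (0.0951 and 0.109). Of 30 genes of EGF, IGF and HGF signalling 9 were lower (30%, against 11.3% of all genes) and 3 higher (10%, against 9.11%). Quantile normalization gave 6 lower. Of 24 hormone receptors and response genes 5 were lower (20.8%, and 3 genes under quantile normalization) and 1, Igfbp2, was higher (4.2%). Fat cells are rich in Ghr and Igf1, and the part of the lower adipocyte list mean in these values was not tested.

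The lists that follow had at most 17.6% of their genes higher and 19.2% lower, against 9.11% and 11.3% of all genes. Of 26 Notch genes 5 were lower, led by Hey1, and 1 was higher, the ubiquitin ligase Dtx1 at 0.27 (adjusted p = 0.0199), with up to 3 higher when single arrays were left out, 5 higher and 4 lower with neighbouring slides as a block, and 3 lower under quantile normalization. Of 42 TGF-beta and BMP genes 6 were lower and 3 higher, and of 42 axon guidance genes 5 were lower and 5 higher, with 1 higher under either rescaling and 3 when end bud array 5 or 6 or duct array 1 or 2 was left out. Slit3, a repulsive guidance ligand, was lower, with a difference of -0.96 (adjusted p = 0.00111). Ntn1, the netrin made by body cells, stood at 0.16, 0.36 and 0.65 in end buds and 0.027, 0.14 and 0.24 in ducts and did not pass at 0.25 (SE 0.089, adjusted p = 0.074), though it did at 0.29 without end bud array 1 (0.0351). Of 32 immediate early genes 4 were higher, led by Egr2 at 1.01 (adjusted p = 0.00176), and 5 lower, and 7 were higher without end bud array 1, 8 with neighbouring slides as a block, and 3 lower under either rescaling. Of 34 apoptosis genes 5 were higher, led by the killer protein Bak1 at 0.83, and 5 lower, among them the caspase-8 inhibitor Cflar at -0.997 (adjusted p = 0.000191 and 1.11e-05; -0.46 for Cflar as the mean of its probes). Of 30 solute transport and secretory defence genes 4 were higher (1 under quantile normalization) and 5 lower (3 lower without duct array 1 or 3), and of 17 cholesterol synthesis genes 3 and 3 (1 lower under quantile normalization).

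Fat cell genes were below stroma in both structures and lower still in end buds. Of 26 adipocyte genes 18 were lower (69.2%, against 11.3% of all genes) and 0 higher by limma (1 higher at an unadjusted p under 0.05), with a median difference of -0.85. The mean of the list lay at -1.659, -1.401 and -1.202 in end buds and at -0.735, -0.542 and -0.444 in ducts. Gpd1, which makes the glycerol backbone of fat, stood at -4.04, -3.15 and -2.45 in end buds and -2.34, -0.96 and -0.23 in ducts, a difference of -2.03 (SE 0.33, adjusted p = 0.000688). Elovl6, an elongase of fatty acids, stood at -2.99, -2.46 and -2.06 and -0.71, -0.48 and -0.32, a difference of -2.01 (SE 0.13, adjusted p = 6.99e-07). Both lay below stroma on all 12 arrays. Fabp4, the fatty acid binding protein of fat cells, was at -1.31 (SE 0.26, adjusted p = 0.00307), and Adipoq, adiponectin, did not pass at -0.24 (SE 0.16, adjusted p = 0.359). The lipogenic genes Acacb and Me1 were lower, with differences of -1.46 and -1.44 (adjusted p = 0.000169 and 9.55e-06).

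Many of these calls depended on the scale of the arrays. Quantile normalization left 3 of the 18 adipocyte calls in number and a common deviation 14, and the first ended the calls of Gpd1 (-1.11, adjusted p = 0.0831) and Fabp4 (-0.67, 0.229). Of 22 genes of fatty acid and triglyceride synthesis 12 were lower and 1 higher (0 to 2 when single arrays were left out), with 7 and 11 lower under the rescalings. Ucp1, which lets brown fat make heat, stood at -3.98, -3.54 and -2.96 in end buds and -3.45, -1.62 and -0.83 in ducts, a difference of -1.73 (SE 0.37, adjusted p = 0.00423). Of 13 brown adipocyte genes 7 were lower and 0 higher (also 0 at an unadjusted p under 0.05), and 0 were lower under either rescaling by limma (1 and 4 at an unadjusted p under 0.05). Ucp1 was -0.72 (adjusted p = 0.187) under the first and -1.19 (0.0649) under the second. A variance that follows the mean level likewise gave 0 lower calls in this list (6 at an unadjusted p under 0.05), with Ucp1 at an adjusted p of 0.153.

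Genes of mitochondria were lower in part. Lower calls made up 62.5% of the fatty acid oxidation, 47.8% of the citric acid cycle and 25% of the respiratory chain list, against 11.3% of all genes. Of 24 genes of fatty acid oxidation 15 were lower and 1 higher (0 or 1 when single arrays were left out), of 23 citric acid cycle genes 11 were lower and 0 higher (also 0 at an unadjusted p under 0.05), and of 56 genes of the respiratory chain 14 were lower and 1 higher (2 without end bud array 2 or 4). Cpt1b, which carries fatty acids into mitochondria, was at -1.17 (adjusted p = 0.00212), Sucla2 of the citric acid cycle at -1.54 (adjusted p = 0.000654; -0.82 as the mean of its probes) and the cytochrome oxidase subunit Cox6c at -1.48 (adjusted p = 0.00187). Quantile normalization left 0 (also at an unadjusted p under 0.05), 1 and 2 lower calls in these lists, ended the calls of all 3 genes (0.04, -0.72 and -0.53) and turned the median of the respiratory list from -0.257 to 0.135. A common deviation left 5, 6 and 6, without Cpt1b (adjusted p = 0.121) and Cox6c, and the variance that follows the level left 8 of fatty acid oxidation, also without Cpt1b (0.28). Of 22 glycolysis genes 3 were higher (13.6%, against 9.11% of all genes) and 4 lower (18.2%, and 2 genes under either rescaling), the latter led by the muscle enolase Eno3 at -1.13 (adjusted p = 0.000193). The adipocyte list mean moved with these lists across the groups, and its part in them was not tested.

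**Figure D5:**
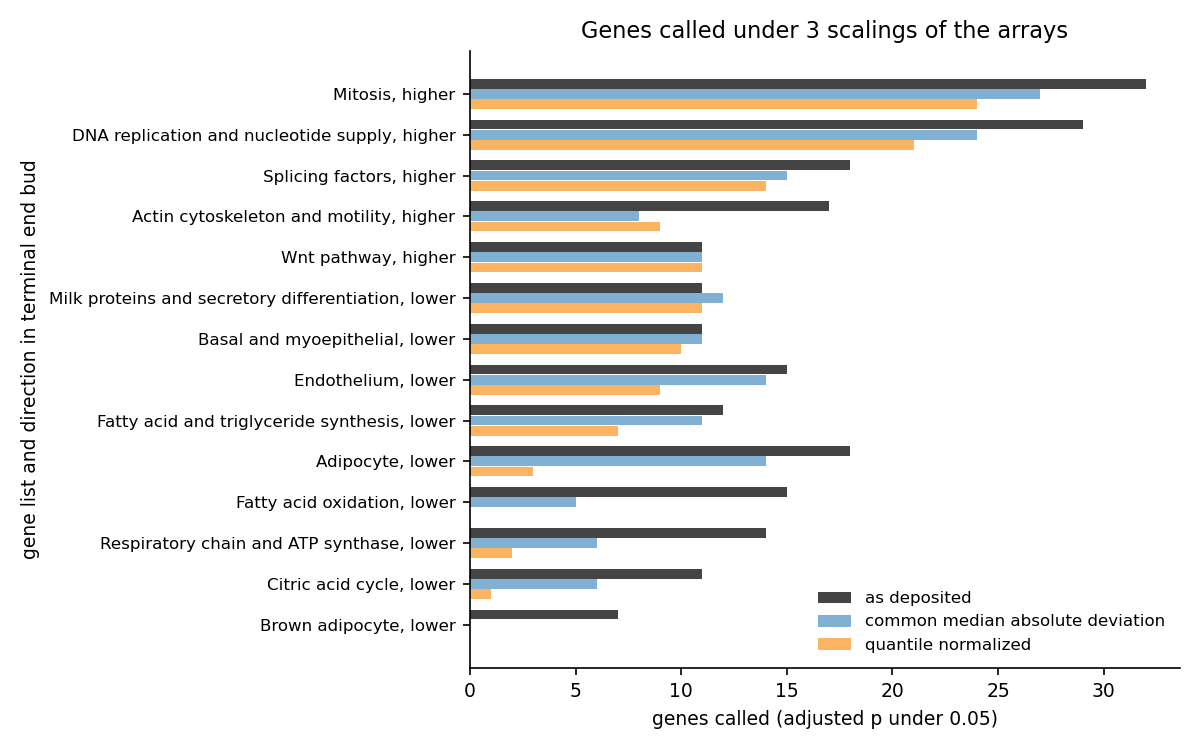
Number of genes called in 14 lists, in the direction named at the left, with the values as deposited (dark), with a common median absolute deviation (blue) and after quantile normalization (orange). The milk list has 11 to 12 calls and the Wnt list 11 under each scaling. The adipocyte list falls from 18 to 3 and the fatty acid oxidation list from 15 to 0 under quantile normalization.

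Genes of blood vessels were lower in end buds. Of 26 endothelial genes 15 were lower (57.7%, against 11.3% of all genes) and 0 higher by limma (1 higher at an unadjusted p under 0.05), with a median difference of -0.58. The arrays of 14 of them did not overlap, against 6.3% of all genes. Pecam1, the CD31 adhesion molecule, stood at -2.17, -1.64 and -1.38 in end buds and -0.82, -0.41 and -0.18 in ducts, a difference of -1.24 (SE 0.14, adjusted p = 4.07e-05). Cdh5, the cadherin of endothelial junctions, stood at -1.67, -1.46 and -1.16 and -0.71, -0.37 and -0.27, a difference of -0.96 (SE 0.11, adjusted p = 5.44e-05). Both were below stroma in both structures and farther below in end buds. Cd34, shared by vessels and some fibroblasts, was lower, with a difference of -1.31 (adjusted p = 0.000514). Quantile normalization left 9 of the 15 calls in number, and a common deviation 14.

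Lists of other cells had at most 20% of their genes higher and 16.7% lower, against 9.11% and 11.3% of all genes. The first share was 3 of 15 nerve and Schwann cell genes and the second 2 of 12 mast cell and eosinophil genes. Of 26 myeloid genes 2 were higher, Cx3cr1 by 0.70 and H2-Ab1 by 0.56 (adjusted p = 0.000514 and 0.0365), and 1, the mannose receptor Mrc1, was lower, with a difference of -1.32 (adjusted p = 0.00049). H2-Ab1 was not called when end bud array 1 or 6 or duct array 3, 4, 5 or 6 was left out, or under the rescalings (0.35 and 0.45, adjusted p = 0.273 and 0.171), and 3 genes were lower without duct array 6. The means of that list overlapped between end buds (-0.467 to 0.393) and ducts (-0.343 to 0.344). Of 24 lymphocyte genes Cd79b, a chain of the B cell receptor complex, was higher by 1.47 (adjusted p = 3.69e-05), Cd52 by 0.49 (adjusted p = 0.0157) and Gzma was lower, with a difference of -0.37 (adjusted p = 0.04), the last not called when end bud array 3, 4 or 6 or duct array 3, 4, 5 or 6 was left out. The leukocyte antigen Ptprc did not pass at -0.43 (SE 0.15, adjusted p = 0.0629), though it did at -0.52 without duct array 6 (0.0217). The mast cell proteases Cpa3 and Tpsb2 were lower, with differences of -1.36 and -0.70 (adjusted p = 0.000125 and 0.00441), and were the 2 calls among 12 mast cell and eosinophil genes. Of 15 nerve and Schwann cell genes Ngfr at 1.10, Egr2 and Sox10 at 0.70 were higher and Pmp22 was lower at -1.14 (adjusted p = 0.000153, 0.0227 and 0.000196 for Ngfr, Sox10 and Pmp22). Sox10 was above stroma on every array, at 2.10, 2.50 and 3.03 in end buds and 1.24, 1.89 and 2.28 in ducts. Sox10 was not called under either rescaling or when end bud array 5 or 6 or duct array 2 was left out. Cd52 and Gzma were not called under quantile normalization. Of 23 skeletal muscle genes Casq1 was higher (not without duct array 3) and Eno3 and Myl1 were lower, and of 5 erythroid genes 0 were called, also at an unadjusted p under 0.05.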

How the data were processed

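Per the labels, each of 12 two-colour arrays compared RNA of microdissected epithelium (Cy5) with RNA of distal stroma (Cy3), with no dye swap. The authors deposited 1 table of normalized log ratios, taken as log2 values with epithelium over stroma. How they were scanned, corrected and scaled was not given in the sources used here; base 2 was inferred from their size. The values were used as deposited. Of 17589 probes, 129 lacked a value on 1 or more of 3 arrays. Gene names came from the platform annotation, 14136 probes having 1 symbol, 13 several and 3440 none, and a gene was read from the probe with the most values, then the first in the table. Of 998 genes with several probes, 9 had probes called in opposite directions.

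limma 3.58.1 (R 4.3.3) fitted 2 group means over the 12 arrays, and the difference was tested two-sided with lmFit and eBayes, with Benjamini-Hochberg adjustment over all probes and a threshold of 0.05. In simulated data with these spreads, 45.6% of differences of 0.5, 93.3% of 1 and 98.2% of 2 were recovered among 200 changed probes, with 7 false calls. The number of arrays limits the precision.

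The comparison and 45 gene lists were chosen with earlier results of these data known. The text names the 12 genes highest and the 12 lowest without overlap of the arrays and up to 4 called genes of each list in each direction. It also names genes from a set picked by name, whatever they showed. Of that set, Prlr, Areg and Csn2 were not on the array by symbol. Trp63, Slit2, Ptch1, Wap and Vim also belong to it and are not reported, so this set is given in part. Dtx1, Cd52, Gzma, Sox10, Pmp22, Casq1 and Myl1 are named because their lists had few calls. Array numbers follow the order of the records and pair nothing. Slide numbers in the titles (190 to 203) served as a possible batch. The alternatives were other scalings, filters, variance models and array weights, slides as block, term or subset, each array left out, and averaging the probes of a gene. Promoters came from RefSeq (GRCm38.p6) by symbol.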

Additional observations from a re-analysis of the deposited data

Results flagged for a closer look

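In each group of 6 arrays, the highest or lowest value was set against the rest by Dixon's test, for the named genes and the list means. It marked 18 of 386 groups, which is no more than the share of about 1 in 20 that chance alone marks. Duct array 5 stood apart on 5 of them: Mcm6 at 2.053, Actg2 at 1.804 and Mylk at 0.504 (the lowest duct), and the means of the replication list at 0.545 and the splicing list at 0.355. Duct array 2 was the highest duct for Mmp14 at 1.566 and Fscn1 at 1.147, and duct array 3 the lowest for Slco2a1 at -0.594. End bud array 1 was lowest for Pgr at 0.032 and H4c8 at 1.41 and highest for Mylk at 0.095. End bud array 5 was highest for Sprr1a at 4.467 and Dhh at 1.908 and lowest for Rrm2 at 1.393, and array 4 was highest for Cdh1 at 2.729 and Ngfr at 1.497. End bud array 2 was highest for Igf1 at -0.81, and array 3 lowest for Cnn1 at -0.543. Of these genes, none of those called lost its call when the array that stood apart was left out. Whether anything beyond chance set these arrays apart was not tested.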

How the results depend on the processing

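Quantile normalization reduced the probes higher by at least 1 from 175 to 87 and those lower by at least 1 from 244 to 141, and a common median absolute deviation reduced the first to 88. The early slides alone (2 arrays a group) called 380 higher and 643 lower. Leaving out each array in turn gave 1236 to 1479 higher and 1543 to 1877 lower, and 149 to 189 and 225 to 260 by at least 1. Replicate numbers follow record order and pair nothing, so the fit with a block took neighbouring slides, each pair with 1 array of each structure. Deviations within these pairs correlated at -0.061 to 0.280, and the block gave 1380 higher and 1848 lower, ended the call of Gzma and gained that of Col1a1 among the named genes.

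Of 148 named genes, quantile normalization ended the call of 16 and turned the sign of 6, and a common deviation ended 13, turned 5 and gained 1 (Acta2). Turned under the first were Krt5 (-0.229), Epcam (0.011), Cdh1 (-0.106), Fgfr2 (-0.169), Uhrf1 (0.166) and Cpt1b (0.043), with the medians of the luminal (-0.096), transcription factor (-0.050), axon guidance (-0.057), junction (-0.076), apoptosis (0.020), respiratory (0.135) and cholesterol (0.035) lists. Under the second they were Krt18 (-0.767), Krt5 (-0.473), Cdh1 (-0.088), Gata3 (-0.317) and Fgfr2 (-0.378), with the medians of the luminal (-0.317), transcription factor (-0.020), FGF (-0.010), junction (-0.023), cholesterol (0.025) and solute transport (-0.033) lists. Early slides turned Acta2 (0.075), Gata3 (-0.038), Esr1 (-0.306), Fgfr2 (-0.459), Mki67 (-0.067), Gzma (0.015) and 10 list medians, among them luminal (-0.083) and chromatin (-0.055), and ended 43 calls. Late slides turned Krt18 (-0.020), Krt5 (-0.119), Epcam (0.099) and Pgr (0.251), the last also without duct arrays 2 and 5 (0.052). Late slides also turned 3 list medians, and leaving out those ducts 6, to values of -0.100 to 0.111. With single arrays left out, Krt5 ranged from -0.084 to 0.134, Epcam from -0.227 to 0.140 and Pgr from -0.262 to 0.004. Of these, only Uhrf1, Cpt1b and Gzma had passed. Centring, probes with all values, the robust model, the slide term and probe means changed no call. The causes were not tested.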
